A study of Mus musculus with 502 samples.

Results

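The immunoglobulin and T cell receptor loci are the antigen receptor genes of B and T cells. Their silencers were taken here as all listed silencers whose midpoint lay in 1 of 6 windows on the human build hg38. These windows were IGH (chromosome 14, 105.5 to 106.9 Mb), IGK (chromosome 2, 88.8 to 90.4 Mb), IGL (chromosome 22, 21.9 to 23 Mb), TRA/TRD (chromosome 14, 21.5 to 22.7 Mb), TRB (chromosome 7, 142.2 to 142.9 Mb) and TRG (chromosome 7, 38.2 to 38.5 Mb). They held 516 of 397137 silencers, or, by line, 0.117% of those listed for 293T, 0.142% for K562 and 0.130% for LNCap. The windows cover 6.3 Mb, or 0.204% of the genome length spanned by the lists, and held 0.130% of all silencers. Silencers were scored by Ss-STARR-seq, in which sheared genome fragments on plasmids are transfected and compared between plasmid DNA (input) and reporter RNA (output). The 461 output and 41 input libraries are represented by 1 list per line, and no input library of K562 is among them. The lines are 293T (embryonic kidney origin), K562 (a leukaemia line with erythroid features) and LNCap (a prostate cancer line). The labels give no treatment that separates the lines and do not name the cells whose DNA was sheared.

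Each receptor locus is an array of V (variable) and J (joining) segments, with D (diversity) segments in IGH, TRB and TRD, and of constant genes. Developing lymphocytes join single segments into a working gene through the RAG recombinase, and enhancers and silencers near the segments help restrict this to the right lineage and stage. The array of V segments is the long part of each locus, built by repeated duplication of related segments. In IGH the constant genes lie towards the lower coordinates and the V segments towards the chromosome end, and in IGL the order is the reverse. The V segments of IGK lie in a pair of related, inverted copies, and the TRD genes lie inside TRA. TRB encloses a group of trypsinogen genes. The windows reach past the receptor genes, and the lists do not say which gene a silencer lies in.

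A silencer is a region of the authors' list with an activity score, deposited to 1 decimal, whose scale (linear or log) is not stated. The lists hold no read counts and no record of which positions were covered. A position without a silencer can therefore not be told apart from one that was not measured, and the mapping of reads was not tested. There is 1 list per line, so intervals below are for counting error only, no difference between lines has a replicate check, and no p-value is given.

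The receptor loci differed widely in density. IGH and TRB were almost empty in every list, while the other 4 windows lay between 0.591 and 1.38 times the density of their list. Among these 4, IGL was lowest over the 3 lists together (0.607 times), but its intervals overlapped those of TRA/TRD and TRG, and IGK came to 0.695 times without the dense block of 79.9 kb that it holds. Together, IGH and TRB held 29 silencers of the 3 lists and the other windows 487. For 293T, density over all 6 windows was 23.3 per Mb, with a 95% exact Poisson interval of 19.7 to 27.4, against 40.6 in the whole list. For K562 it was 30.2 (26 to 34.8) against 43.5, and for LNCap 28.4 (24.4 to 32.9) against 44.6. Relative to the list, the loci thus stood at 0.575, 0.694 and 0.637 times. Without IGH and TRB the values were 0.827, 0.975 and 0.896 times. The immunoglobulin windows together stood at 0.529, 0.752 and 0.590 times (293T, K562, LNCap), and the T cell receptor windows at 0.661, 0.585 and 0.723 times. Within each line the intervals of both classes of receptor overlapped.

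**Figure D1:**
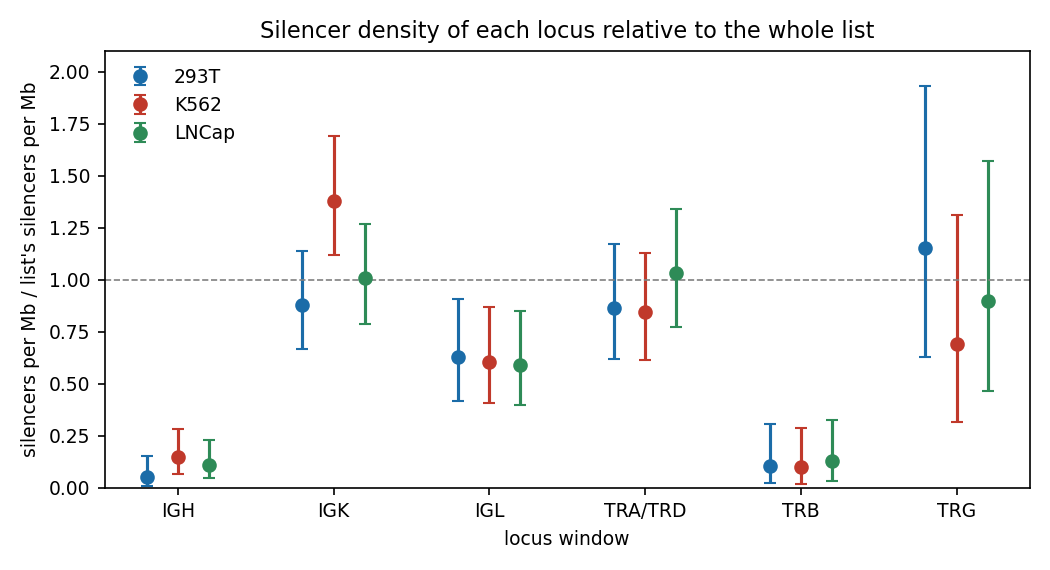
Silencers per Mb in each locus window divided by the silencers per Mb of the same list (y axis, linear from 0), for 293T, K562 and LNCap; bars are 95% exact Poisson intervals of the count in the window and the dashed line marks the list's own density. IGH and TRB lie at 0.0528 to 0.148 times in all 3 lists, while IGK in K562 is at 1.38 times.

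IGH, the heavy chain locus, was the emptiest by share of its length. The 293T list placed 3 silencers there (interval 0.619 to 8.77), K562 placed 9 (4.12 to 17.1) and LNCap 7 (2.81 to 14.4). These densities were 0.0528, 0.148 and 0.112 times those of the lists. Cutting the genome into 2066 occupied tiles as long as this window, 1.55% of tiles held at most the 19 silencers that the 3 lists placed in IGH. The median tile held 182. Measured against chromosome 14 itself, counted to its highest end with no part masked, IGH stood at 0.0587, 0.164 and 0.122 times.

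The silencers of IGH lay at its edges. At the lower edge, 8 silencers lay within 17.9 kb (2 in 293T, 2 in K562 and 4 in LNCap). From there to chr14:106766700, a span of 1248 kb, a single silencer of 293T was listed (chr14:106359151-106359251, score 2.2). The stretch of 840 kb before it, chr14:105519051-106359151, held no silencer of any list. It ranked 33 among 362941 such stretches of the genome, whose median length is 4170 bp. The stretch after it, 407 kb long, ranked 81. Towards the chromosome end, 7 silencers of K562 and 3 of LNCap lay in 110 kb, and the 293T list had none there. The K562 silencer at chr14:106872301-106872351 had the highest score in IGH, 3.3, which 5.54% of the K562 list reached. The last silencer of IGH ended at 106877151, the highest end on chromosome 14 in any list. Directly below the window, a neighbouring stretch of 500 kb held 18 silencers for 293T, 25 for K562 and 19 for LNCap, each more than the whole IGH window.

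TRB, the T cell receptor beta locus, was as sparse. The 293T and K562 lists placed 3 silencers there each (interval 0.619 to 8.77) and LNCap 4 (1.09 to 10.2), or 0.106, 0.0986 and 0.128 times the list's density. Of 4118 tiles of its length, 1.82% held at most its 10 silencers, and the median tile held 90. In 293T they lay at chr7:142243151-142243201, chr7:142508751-142508801 and chr7:142701951-142702151, with scores of 2.1 to 2.2. In K562 they lay at chr7:142306150-142306400 (score 2.7), chr7:142468651-142468701 (2.0) and chr7:142691650-142691851 (2.0). In LNCap, 3 lay side by side in chr7:142292901-142293251 (scores 2.8, 2.2 and 2.5) and 1 at chr7:142661751-142661951 (2.5). No position was held by more than 1 list. Stretches without a silencer in any list lay inside the window at chr7:142306400-142468651 and chr7:142508801-142661751. Another of 413 kb began at 142702151 and ran past the upper end. A further stretch of 205 kb, chr7:142038257-142243151, ran past the lower end. The sparse region thus extended beyond both ends, with 11 silencers of each list in the 500 kb below the window and 7, 7 and 8 in the 500 kb above it.

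**Figure D2:**
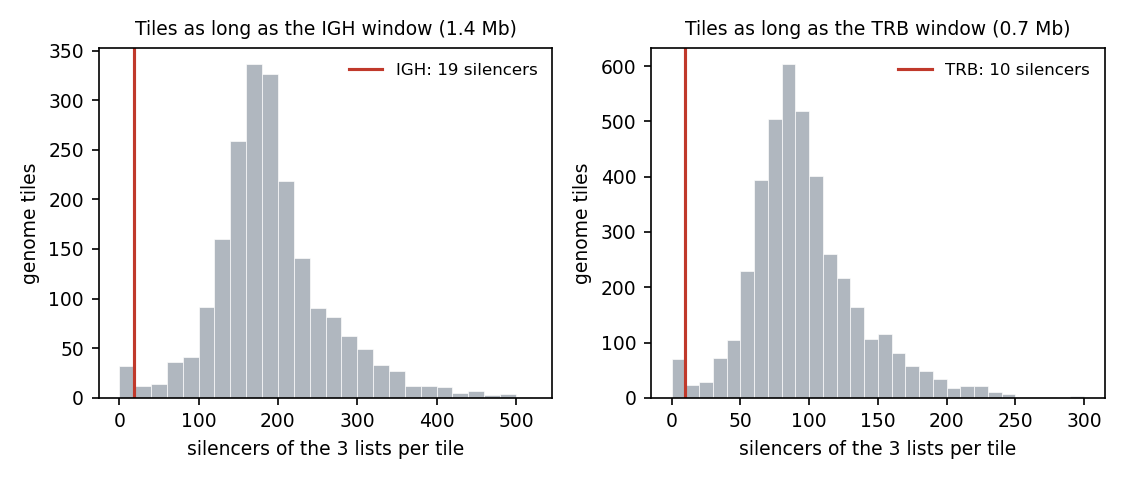
Number of genome tiles (y axis) by the silencers of the 3 lists they hold (x axis), for tiles as long as the IGH window (left, bins of 20) and the TRB window (right, bins of 10). The red lines mark IGH with 19 silencers and TRB with 10, which 1.55% and 1.82% of tiles do not exceed.

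A second receptor locus on the same chromosome served as a comparison in both cases. TRA/TRD, also on chromosome 14, held 42, 44 and 55 silencers in 293T, K562 and LNCap. Its density was 16.3 times that of IGH in 293T, 5.70 times in K562 and 9.17 times in LNCap. TRG, also on chromosome 7, held 14, 9 and 12, a density 10.9 times that of TRB in 293T and 7.00 times in both K562 and LNCap. On both chromosomes the low density of the one receptor locus was therefore not shared by the other.

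TRA/TRD was filled from end to end. Relative to the list, density was 0.862 times for 293T (interval 0.621 to 1.17), 0.843 times for K562 (0.613 to 1.13) and 1.03 times for LNCap (0.774 to 1.34). Of tiles of its length, 36.3% held no more silencers than this window. Of 24 steps of 50 kb, 1 had no silencer in any list. This was the step from 22.45 to 22.50 Mb, inside the longest gap of 67.5 kb (chr14:22440285-22507835). The fullest step, from 21.55 to 21.60 Mb, held 5, 6 and 6. For 293T and LNCap, TRA/TRD also held the highest score of all receptor loci. The 293T silencer at chr14:22415651-22415701 scored 6.9, a value that 58 of 125249 silencers of that list reached. The LNCap silencer at chr14:21531751-21531801 scored 6.5, reached by 0.0987% of that list. Neither overlapped a silencer of another list. In K562 the highest was 3.8 at chr14:22110935-22110985, where LNCap listed the identical interval with a score of 3.5. This was below the 4.5 that K562 reached in IGK.

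TRG, the smallest window, had no empty step. The 293T density was 1.15 times the list (interval 0.629 to 1.93), that of K562 0.690 times (0.316 to 1.31) and that of LNCap 0.896 times (0.463 to 1.57), and 41.7% of tiles held at most its 35 silencers. The highest score was 3.8 in 293T, at chr7:38355051-38355101. The highest scores in LNCap (2.7) and K562 (2.6) were lower in their own lists, reached by 20.9% and 23% of silencers. The fullest step, from 38.20 to 38.25 Mb, held 4 silencers of 293T, 5 of K562 and 1 of LNCap.

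**Figure D3:**
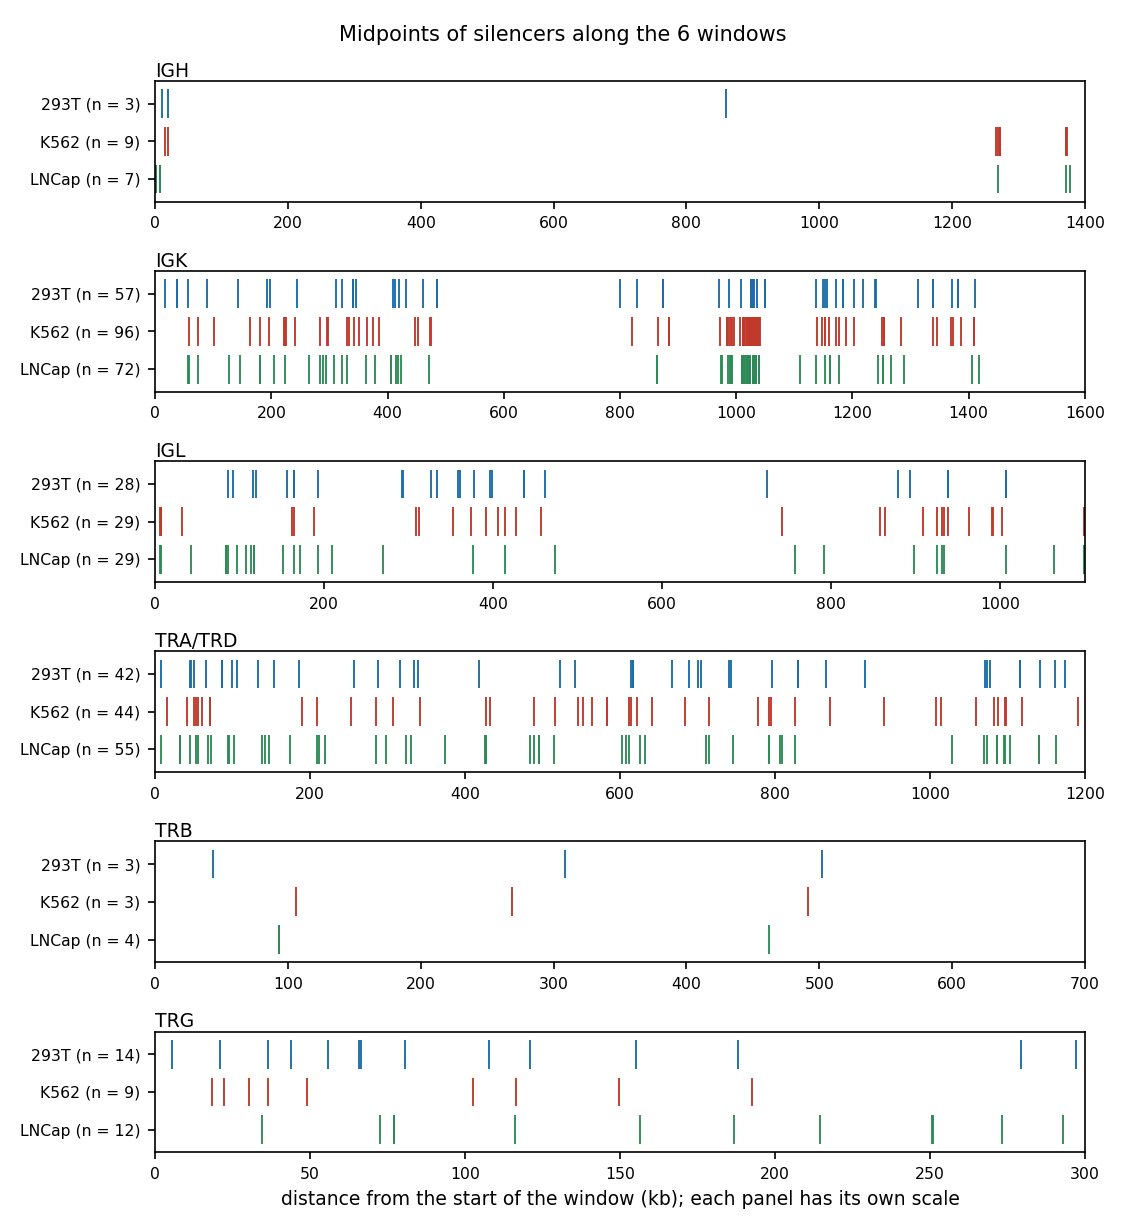
Midpoints of all 516 silencers along the 6 windows (x axis, distance from the window's start in kb, a separate scale per panel), 1 row of ticks per line; ticks closer than the line width merge, as for the 3 LNCap silencers near 93.1 kb in TRB. The gaps in IGK and IGL were defined as stretches without a silencer in any list, so every row is empty there. The middle of IGH holds a single silencer, of 293T. The block in IGK holds 46 silencers of K562, 32 of LNCap and 11 of 293T, in each case denser than the whole list.

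IGK, the kappa light chain locus, held the most silencers of the 6 windows in each list, unevenly spread. By density it was first for K562 only, since TRG was denser for 293T (46.7 against 35.6 per Mb) and TRA/TRD for LNCap (45.8 against 45.0). The 293T list placed 57 silencers there, K562 96 and LNCap 72. K562 stood at 60.0 per Mb (interval 48.6 to 73.3), above its list's 43.5. The interval takes neighbouring silencers as independent, although 46 of the 96 lay within 500 bp of another. Merging these left 65 regions of K562, and IGK then stood at 0.925 times over the 3 lists together. 293T was at 0.878 times its list (0.665 to 1.14) and LNCap at 1.01 times (0.789 to 1.27). Of tiles of this length, 61.5% held at most its 225 silencers. Of 32 steps of 50 kb, 9 were empty in all lists.

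IGK consisted of several parts. The lower part, chr2:88816751-89285401, held 23, 24 and 25 silencers, nearly equal in the 3 lists. A stretch of 314 kb without a silencer followed (chr2:89285401-89599301). After it came 10 silencers in 85.4 kb, then a dense block, and then 19, 22 and 13 silencers up to 90218151. Beyond that position no list had a silencer for 1189 kb, of which 182 kb lay inside the window. Whether this stretch includes unsequenced parts of the build was not checked. The lower part spanned 469 kb and the part above the block 309 kb.

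The dense block spanned 79.9 kb, chr2:89770401-89850334, and was picked out after its values were seen, as a run of silencers linked by gaps of at most 11 kb. Its silencers numbered 11 for 293T (interval 5.49 to 19.7), 46 for K562 (33.7 to 61.4) and 32 for LNCap (21.9 to 45.2), which are 19.3%, 47.9% and 44.4% of the IGK silencers of those lists. Of 38641 genome tiles of this length, 5 held at least as many as its 89 silencers. The tiles lay on a fixed grid, while the block's ends were set by its own silencers, so the counts are not measured alike. The step from 89.80 to 89.85 Mb alone held 7, 38 and 25, and ranked 5 among 61729 steps of the genome. Silencers covered 10.2% of the block's length in K562, 6.42% in LNCap and 1.24% in 293T. Their density there was 0.575, 0.400 and 0.138 per kb, against 43.5, 44.6 and 40.6 per Mb in the whole lists. The block, picked for its crowding, was thus denser than the list in 293T too. In K562 the median gap between neighbours was 375 bp, and 11 of 45 gaps measured exactly 50 bp. Gaps of the whole K562 list were not measured, and a block picked as a run of close silencers has short gaps by its definition. Without the block, IGK stood at 0.746 times the 293T list, 0.757 times that of K562 and 0.590 times that of LNCap. The value above 1 for K562 was thus found with the block only.

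**Figure D4:**
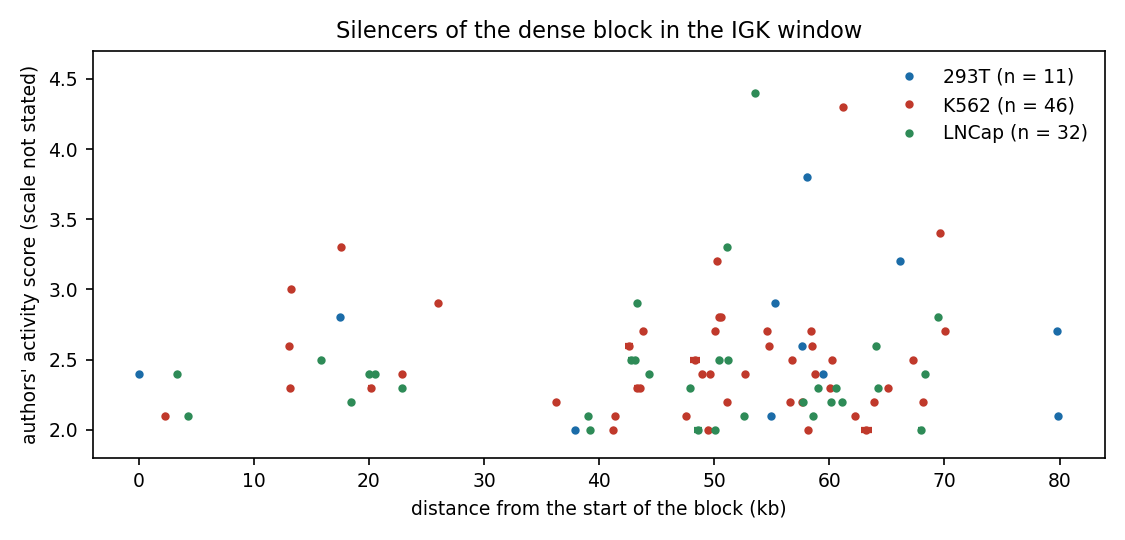
The 89 silencers of the dense block in IGK by distance from the block's start (x axis, kb) and the authors' activity score (y axis, scale not stated, axis from 1.8); points mark midpoints and short bars the width. K562 (46) and LNCap (32) crowd between about 40 and 70 kb. 293T (11 in all) has fewer there, although its density in the block, 0.138 per kb, exceeds its list's 40.6 per Mb. Most scores lie below 3.

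Outside the block, IGK held several strong silencers. The highest scores were 5.1 in 293T (chr2:89599301-89599351, reached by 0.519% of the list) and 4.5 in K562 (chr2:88874351-88874401, 0.717%). That of LNCap, 4.4 (chr2:89823961-89824011, 1.22%), lay in the block. Near the lower end, K562 and LNCap listed the identical interval chr2:88857201-88857701, 500 bp wide, with scores of 3.4 and 3.9. The 293T list had no silencer over it, and its nearest before it, of score 2.1, ended at 88856901. The widest silencer of any receptor locus was a K562 silencer of 975 bp with the low score of 2.0, at chr2:89833126-89834101.

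IGL, the lambda light chain locus, held 28 silencers of 293T and 29 each of K562 and LNCap. With window ends 100 kb further out the counts were 35, 45 and 58, and with ends 100 kb further in 24, 23 and 19, so the even counts depend on the window. This was 0.627 times the 293T list (interval 0.417 to 0.906), 0.606 times that of K562 (0.406 to 0.871) and 0.591 times that of LNCap (0.396 to 0.848), with all 3 intervals below 1. Of tiles of its length, 9.24% held at most its 86 silencers. Chromosome 22 is itself sparse in 293T, at 25.5 silencers per Mb, so that IGL stood at 0.998 times its chromosome there, against 0.694 times in K562 and 0.643 times in LNCap. A stretch of 250 kb without a silencer, chr22:22373701-22624051, divided the locus. Below it lay 21, 16 and 20 silencers, and above it 7, 13 and 9. The fullest step of 50 kb, from 22.05 to 22.10 Mb, held 5, 3 and 4.

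The upper part of IGL, on the side of the J segments and constant genes, held fewer silencers, with higher median scores. The median score was 3.2 in 293T, 2.7 in K562 and 2.4 in LNCap above the stretch, and 2.2, 2.1 and 2.1 below it. These parts were set apart after the positions had been seen, and the upper one rests on 7, 13 and 9 silencers. Wilson intervals for its share above the list's median were 35.9 to 91.8, 42.4 to 87.3 and 35.4 to 87.9. Each includes the list's share and overlaps the interval of the lower part. The highest scores of each list in IGL all lay in the upper part: 5.3 in 293T (chr22:22906450-22906501), 3.8 in K562 (chr22:22641950-22642201) and 4.0 in LNCap (chr22:22831131-22831201). Close to the 293T silencer lay another of that list, chr22:22906551-22907074 with a score of 2.1, which overlapped a LNCap silencer of score 2.4.

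Scores in the receptor loci lay slightly above those of the whole lists. For 293T the median was 2.4 against 2.3, and for the other lines 2.3 against 2.2. Of 293T silencers in the loci, 76 (51.7%, Wilson interval 43.7 to 59.6) scored above the list's median, a value that 43.7% of the list exceeds because of ties. For K562 the share was 56.8% (49.7 to 63.7) against 46.4%. For LNCap it was 58.7% (51.3 to 65.6) against 49.4%. Scores of at least 4 were as rare as elsewhere, with 3 in 293T (2.04% against 2.71%), 3 in K562 (1.58% against 1.56%) and 5 in LNCap (2.79% against 2.17%).

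Of the 6 loci, IGK alone had an interval above the list's share, at 69.8% for K562 (60 to 78.1), 69.4% for LNCap (58 to 78.9) and 59.6% for 293T (46.7 to 71.4). For 293T, TRA/TRD had a similar share of 57.1% (42.2 to 70.9), so IGK was not set apart from it. Outside the dense block, 35 of 50 IGK silencers of K562 (70%, interval 56.2 to 80.9) and 30 of 40 of LNCap (75%, 59.8 to 85.8) scored above their list's median. For 293T these were 26 of 46 (56.5%, 42.2 to 69.8), an interval that includes the list's share. Inside the block the share was 69.6% for K562 (55.2 to 80.9), above its list. For LNCap it was 62.5% (45.3 to 77.1) and for 293T 72.7% of only 11 (43.4 to 90.3), and both intervals include the list's share. In the 5 other loci together they were 46.7% in 293T, 43.6% in K562 and 51.4% in LNCap, each with an interval that includes the list's value. The upper part of IGL, above, held shares of 71.4%, 69.2% and 66.7%, on few silencers and with intervals that also include the list's value. IGH and TRB held no 293T silencer above the median, on 3 silencers each.

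**Figure D5:**
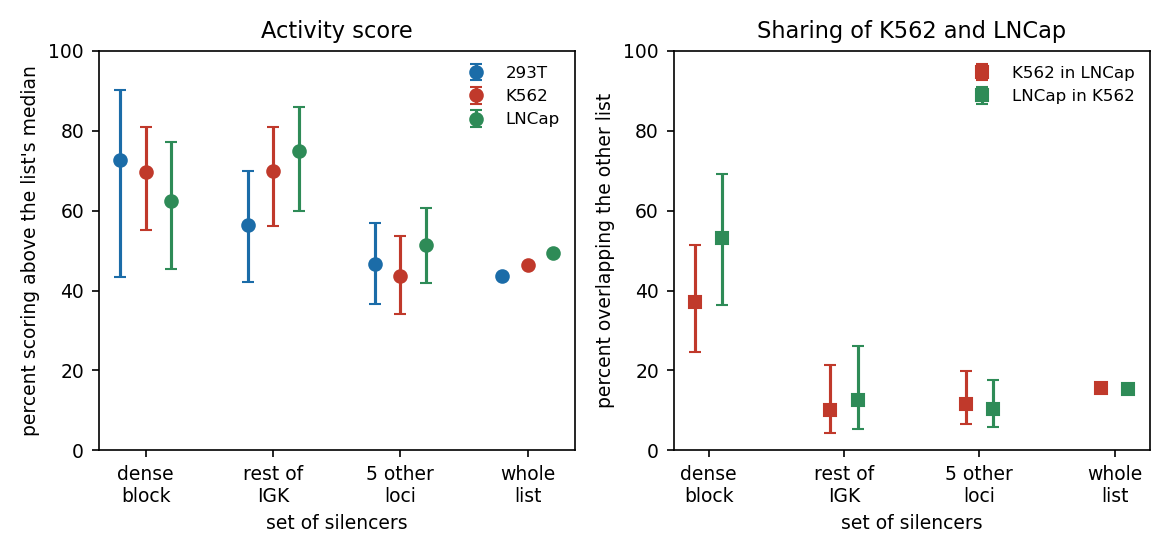
Left, percent of silencers scoring above the median of their own list, for the dense block of IGK, the rest of IGK, the 5 other loci and the whole list; right, percent of K562 silencers overlapping LNCap and of LNCap silencers overlapping K562 in the same sets. Bars are 95% Wilson intervals; Outside the block, the IGK intervals of K562 and LNCap lie above the whole list, as does that of K562 inside it, while sharing of K562 with LNCap is 37.0% and 53.1% in the block and 10% to 12.5% in the other sets of loci.

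Most silencers of the receptor loci were found in 1 list. Merging overlaps of at least 1 bp over the lists gave 462 regions. Of these, 42 were held by more than 1 list. K562 and LNCap shared 29, 293T and K562 shared 6, 293T and LNCap shared 4, and all lists shared 3. Merged regions of the whole lists were not counted, so only the shares by list have a genome value beside them. By list, 33 of 190 K562 silencers overlapped LNCap (17.4%, interval 12.6 to 23.4) against 15.7% of the whole K562 list. In the other direction, 33 LNCap silencers did so (18.4%, 13.4 to 24.8) against 15.4%. Of 293T silencers, 10 overlapped K562 (6.80%, 3.74 to 12.1) against 3.30%, and 8 overlapped LNCap (5.44%, 2.78 to 10.4) against 3.58%. Conversely, 9 K562 silencers (4.74%, 2.51 to 8.76) and 7 LNCap silencers (3.91%, 1.91 to 7.85) overlapped 293T, against 3.03% and 3.23%. Apart from 293T in K562, these intervals include the share of the whole list. Without the dense block, the share of 293T in K562 was 5.15% (2.52 to 10.2), which includes it too, and among scores above the median it was 2.63% against 2.41%.

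Sharing between K562 and LNCap was highest in the dense block. There, 17 of 46 K562 silencers overlapped LNCap (37.0%, interval 24.5 to 51.4) and 17 of 32 LNCap silencers overlapped K562 (53.1%, 36.4 to 69.1). The block's silencers lay close together, with a median width of 100 bp for K562 and 90 bp for LNCap against 50 bp for 293T. How far crowding alone raises overlap was not tested. In the rest of IGK the same shares were 10% and 12.5%, on 5 silencers each, and in the 5 other loci 11.7% and 10.3%, on 11 each. Overlap with 293T was mixed and rested on few silencers. In the block, 3.12% of LNCap silencers overlapped 293T against 7.5% in the rest of IGK. The other shares were higher in the block: 6.52% against 4.00% for K562 in 293T and 27.3% (3 of 11) against 6.52% for 293T in K562. For 293T in LNCap they were 9.09% against 6.52%, and 1 of the 8 293T silencers overlapping LNCap lay in the block. IGH and TRB held no overlap between lists, on 19 and 10 silencers.

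The 3 regions held by every list lay in the light chain loci, which also held most of the 462 merged regions (190 in IGK and 76 in IGL). The first, chr2:89827976-89828161 in the dense block, had a score of 2.6 for 293T and of 2.2 for both other lines. The second, chr2:89953250-89953451, scored 2.1 in 293T, 2.3 in K562 and 2.1 in LNCap. In both of these, a 293T silencer overlapped those of K562 and LNCap, which did not overlap each other. The third, chr22:22063551-22064301, held 3 silencers of 293T (scores 3.0, 2.8 and 2.0), 1 of K562 (2.0) and 1 of LNCap (2.0, 600 bp wide, the widest in IGL). No score in these regions exceeded 3.0. Identical intervals occurred 4 times, all between K562 and LNCap. Besides those named above in IGK and TRA/TRD, they were chr2:89793251-89793301 in the block (scores 2.4 and 2.3) and chr14:21709051-21709101 (2.1 and 2.0). Identical intervals of the whole lists were not counted. Over the whole lists too, K562 overlapped LNCap (15.7%) more often than 293T (3.03%), so this pairing is not particular to the loci.

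Over the 6 loci together, the narrowest class of silencer was less frequent than in the whole lists, and the widest class more frequent. Silencers of exactly 50 bp made up 55.8% in 293T, 50.5% in K562 and 57.5% in LNCap, against 64.5%, 58.7% and 60.6% of the whole lists. Silencers over 300 bp numbered 5, 14 and 7 (3.40%, 7.37% and 3.91%, against 1.39%, 2.32% and 2.28%). All 14 of K562 lay in IGK, 8 of them in the block and 6 outside it. For LNCap these differences were found with the block only: without it, 60.5% were of 50 bp and 1.36% were over 300 bp. In the 5 other loci together, 58.9% (293T), 58.5% (K562) and 58.9% (LNCap) were of 50 bp. There 3.33%, 0% and 0.935% were over 300 bp, above the whole list for 293T only. Outside the light chain loci the widest silencers were those of 293T at chr14:21815357-21815746 in TRA/TRD (389 bp) and chr7:38320567-38320953 in TRG (386 bp). Silencers within 500 bp of another of the same list numbered 42 for 293T (28.6% against 26.1%), 58 for K562 (30.5% against 25%) and 64 for LNCap (35.8% against 26.9%). Without the block these shares were 26.5%, 16% and 28.6%, and that of K562 then lay below its list's.

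With each list scaled to its own size, the lines differed little over the receptor loci as a whole. The 293T share was 0.864 times the mean of the other lists, that of K562 1.15 times and that of LNCap 1.00 times. Leaving out the dense block brought these to 1.01, 0.997 and 0.989. By locus, IGK was at 0.735 times in 293T, 1.46 times in K562 and 0.893 times in LNCap. Without the block, IGK was at 1.11, 1.13 and 0.785 times, so that the direction turned for 293T. IGH was at 0.406 times in 293T and 1.79 times in K562, on 3 and 9 silencers whose intervals overlap. TRG ran the other way, at 1.45 times in 293T and 0.675 times in K562, on 14 and 9 silencers with overlapping intervals. IGL lay between 0.958 and 1.05 times in all lists.

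Long stretches without a silencer occurred in immunoglobulin and T cell receptor loci, but not in each. Steps of 50 kb with no silencer in any list numbered 46 over the 6 windows (36.5%), against 10.9% of 61729 steps over the genome. By locus these were 24 of 28 in IGH, 7 of 14 in TRB, 9 of 32 in IGK, 5 of 22 in IGL, 1 of 24 in TRA/TRD and 0 of 6 in TRG.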

How the data were processed

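Ss-STARR-seq libraries of 293T, K562 and LNCap were grouped by title: 102 output and 1 input of 293T, 180 output of K562, and 179 output and 40 input of LNCap. Each library is labelled mouse, but the lines are human and the build is hg38, so the lists were read as human. Reads were handled with Bowtie2 and SAMtools, per the submitters' processing notes; for versions, the region caller and the pooling of libraries, nothing is given in the sources used here. Deposited values are the authors' activity score per silencer, with chromosome, start, end and activity columns per the file headers. Positions are printed as deposited. Lines that were incomplete, lay off chromosomes 1 to 22, X and Y, had an end not above the start or were over 5000 bp wide were left out (58, 12 and 24 of the 293T, K562 and LNCap lists), leaving 125249, 134159 and 137729. Of these, 147, 190 and 179 were members. No member had an infinite score. Genome length (3086 Mb) is the sum of each chromosome's highest end. Unsequenced parts of the build were not masked, so they count as length in densities, steps and stretches without a silencer.

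Intervals are 95% exact Poisson (counts) or Wilson (shares). Read depth is unknown, so they cover counting error among listed regions only. Both kinds take the silencers of a list as independent, although many lie within 500 bp of another, so they can be too narrow. Tiles are whole tiles of a window's length with a silencer in any list. Members and lists were chosen with earlier results of these data known. Named regions are those held by all lists, the highest finite score per locus and line, the widest silencer, the fullest step and the longest gaps; others, including the dense block, the parts of IGK and IGL and the identical intervals, were chosen after their values were seen. Gene features and sequence features need a human annotation or genome, which was not used here. Alternatives were other window ends, merging within 500 bp, scores above the median, other overlap rules, occupied 100 kb bins and silencers of 50 bp. Counting steps were tested on simulated data. Software was matplotlib 3.10.9, scipy 1.17.1, pandas 2.3.3 and numpy 2.4.6 under Python 3.11.15.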

Additional observations from a re-analysis of the deposited data

How the results depend on the processing

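The low density of IGH and TRB held under each alternative run. IGH stood at 0.105 times over the 3 lists, 0.337 in occupied 100 kb bins and 0.0389 with window ends moved inward by 100 kb. TRB stayed between 0.0932 and 0.118. IGK changed sides of its list's density: 1.09 times over the 3 lists, 0.925 after merging within 500 bp, 1.57 above the list's median score and 0.695 without the dense block. For all 6 loci (293T, K562, LNCap), occupied bins gave 0.703, 0.848 and 0.779, and scores above the median 0.680, 0.849 and 0.756. Without the block, K562 gave 0.533 and LNCap 0.530. Keeping scores above the median left 289 of 516 silencers. Shares of overlap moved with the rule. With 50% or more of both widths they were 1.36% (293T in K562), 0% (293T in LNCap), 1.05% (K562 in 293T), 7.37% (K562 in LNCap), 0% (LNCap in 293T) and 7.82% (LNCap in K562), against 1.08%, 1.14%, 1.01%, 6.56%, 1.04% and 6.39% of the whole lists. With midpoints within 500 bp they were 10.9% (293T in LNCap), 28.4% (K562 in LNCap) and 30.7% (LNCap in K562), against 10.6%, 27.2% and 27% of the whole lists. K562 in 293T (7.89% against 9.21%) and LNCap in 293T (6.70% against 9.65%) then fell below the whole list, which they exceeded at 1 bp. Above the median they were 2.63% for 293T in either list, 1.85% for K562 in 293T and 1.90% for LNCap in 293T, against 2.41%, 2.76%, 2.09% and 2.21% of the whole lists. K562 in LNCap was 15.7% against 13.3%, and LNCap in K562 16.2% against 12.2%. Members thus lay below the list for 293T in LNCap, K562 in 293T and LNCap in 293T, and above it for the other pairs. Without the block, 11.1% of K562 in LNCap and 10.9% of LNCap in K562 overlapped. Of alternatives for the main values, 71 stayed within the interval or within 1.5 times the count and 29 moved, all given here. For single loci and lines, 41 moved. Leaving out the block and the own chromosome's density were chosen after seeing the data. No paired analysis was possible because the lists are 1 per line and carry no replicate numbers. The causes of these shifts were not tested.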
